A study of Homo sapiens with 4 samples.

Results

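The nuclear lamina and inner nuclear membrane genes described here are LMNA, LMNB1, LMNB2, LBR, EMD, TMPO, SUN1 and SUN2. They are the 8 rows, of 20515 in the count table, whose Ensembl identifier carries one of these symbols. All 8 were found and all 8 passed the filter on low counts. The rule that picks them uses their names and no measured value, but the names were chosen with earlier results of these data known. RNA came from T47D cells, an established human luminal breast carcinoma line. It was measured in 2 control libraries without treatment and in 2 libraries of cells treated with baicalein, a flavonoid of plant origin that inhibits lipoxygenases. The dose, the vehicle and how long cells were treated are not stated in any source used here. The series asks how expression differs between treated and control cells.

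The lamina is a meshwork of intermediate filaments on the inner face of the nuclear envelope. LMNA codes for the A-type lamins A and C by alternative splicing, and LMNB1 and LMNB2 for the B-type lamins. LBR, emerin (EMD) and the lamina-associated polypeptides of TMPO bind lamins and chromatin, and the SUN proteins span the inner membrane and link the lamina to the cytoskeleton. LBR and A-type lamins are known as the tethers of heterochromatin to the envelope, and a low LMNB1 level is widely used as a marker of senescent cells.

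Total counts were 38597207 to 56732569 per library, so 1 unit of CPM, the count scaled to library size, stood for 37.2 to 54.7 counts. CPM values are scaled by TMM factors, and all fold changes compare baicalein with control. CPM is a share of the library, and amounts of RNA per cell were not measured. TMM scaling takes most genes as unchanged, whereas 75.0% of tested genes were called here. The labels do not say whether replicates were grown as separate cultures, so the p-values reflect the spread between these samples only, and that spread may be technical. The 9 luminal epithelial markers were all detected, with a summed level of 12880 to 14180 CPM in the controls and 7295 to 7412 CPM in the treated libraries, most of it from KRT8, KRT18 and KRT19. In edgeR's test 7 of them were lower, CDH1 was higher and EPCAM did not pass (37.6% of all tested genes were lower and 37.4% higher). Of 9 stromal, endothelial and leukocyte markers 5 had no row in the table. Of the others, COL1A1 was at 95.2 ± 7.32 CPM in the controls and 145 ± 7.13 CPM in the treated libraries (SD, n = 2), COL1A2, PTPRC and CD68 were below 0.4 CPM in every library, and PTPRC had 0 counts in both controls.

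As a share of the library, baicalein-treated cells had less RNA for both B-type lamins, TMPO, SUN2 and LBR, and more for EMD and SUN1. LMNB1 was 5.13-fold lower, TMPO 2.86-fold lower and LMNB2 2.49-fold lower. LMNA, the most abundant member per kilobase of exon, did not pass the test. By the quasi-likelihood test of edgeR, adjusted after Benjamini and Hochberg over 18369 tested genes (threshold 0.05), 5 of the 8 members were lower and 2 higher. Over all tested genes 37.6% were lower and 37.4% higher, or 75.0% in either direction, so the number of calls among the members is near that of genes in general. Falls of at least 2-fold were found in 3 members, against 15.2% of tested genes. The treated libraries lay on one side of both controls for 7 members, against 86.9% of tested genes. The median log2 fold change was -0.41 over the members and 0.0017 over all tested genes. In bulk RNA, fewer cells of a kind and less RNA per cell cannot be told apart.

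**Figure D1:**
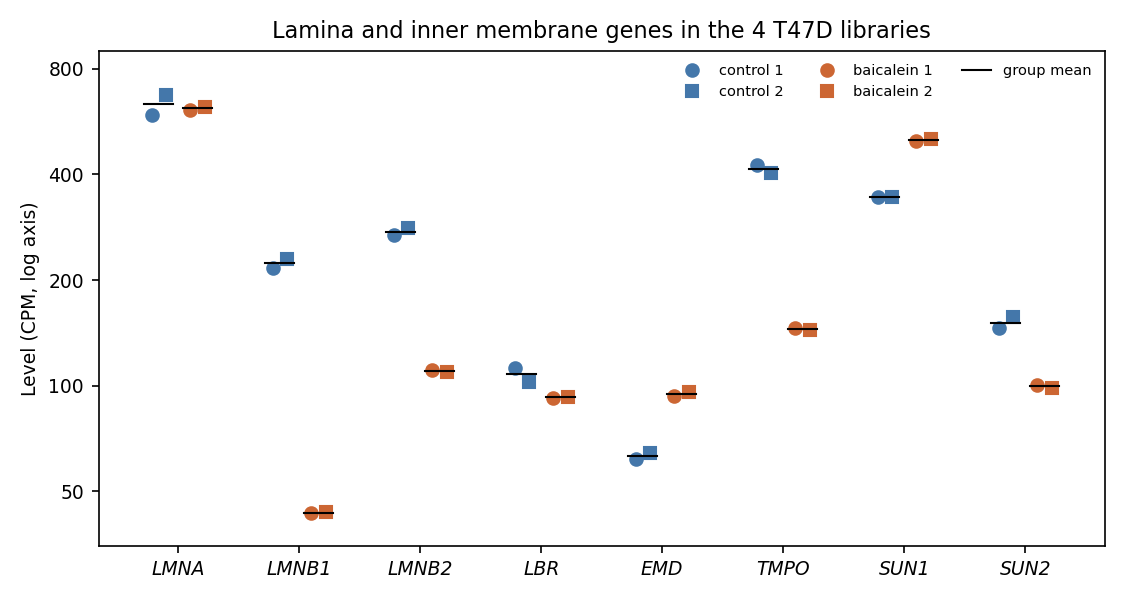
Level of each member in CPM on a log axis (y) in control 1 and 2 (blue) and baicalein 1 and 2 (orange), with the group means as black lines. LMNB1 drops from 217 and 229 CPM to 43.5 CPM in both treated libraries, EMD and SUN1 lie higher in the treated libraries, and the LMNA groups overlap.

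Stretches directly upstream of 4 start sites are printed here because LMNB1 fell most, TMPO fell together with an antisense RNA whose gene covers this stretch, EMD rose most and LMNA was not called. They are the 250 bases before a RefSeq transcript start in GRCh38.p14, all on the plus strand, and lie at chr5:126776886-126777135 (LMNB1, the downstream of 2 listed starts), chr12:98515323-98515572 (TMPO), chrX:154379045-154379294 (EMD) and chr1:156082323-156082572 (LMNA, the most upstream of 3 listed starts). Capitals mark CCAAT on either strand (ATTGG where it lies on the reverse strand) and TTTCCCGC, one of the E2F forms searched. The windows of the other LMNB1 start and of the other LMNA starts held no match to any letters searched. The marked letters therefore belong to the printed starts of these genes and not to all of their starts.
LMNB1: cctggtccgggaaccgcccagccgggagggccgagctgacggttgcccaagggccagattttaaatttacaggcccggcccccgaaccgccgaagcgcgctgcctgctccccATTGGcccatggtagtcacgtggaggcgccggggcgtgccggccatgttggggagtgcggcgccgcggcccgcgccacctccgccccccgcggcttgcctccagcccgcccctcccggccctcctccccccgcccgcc
TMPO: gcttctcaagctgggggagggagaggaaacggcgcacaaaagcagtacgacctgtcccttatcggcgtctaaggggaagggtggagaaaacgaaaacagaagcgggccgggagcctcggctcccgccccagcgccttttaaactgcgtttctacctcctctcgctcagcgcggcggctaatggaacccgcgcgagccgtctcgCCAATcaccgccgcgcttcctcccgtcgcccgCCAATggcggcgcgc
EMD: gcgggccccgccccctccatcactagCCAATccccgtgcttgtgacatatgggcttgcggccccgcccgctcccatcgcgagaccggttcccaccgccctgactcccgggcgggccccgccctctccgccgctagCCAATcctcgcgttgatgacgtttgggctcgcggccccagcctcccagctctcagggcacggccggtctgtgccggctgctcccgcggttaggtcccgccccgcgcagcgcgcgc
LMNA: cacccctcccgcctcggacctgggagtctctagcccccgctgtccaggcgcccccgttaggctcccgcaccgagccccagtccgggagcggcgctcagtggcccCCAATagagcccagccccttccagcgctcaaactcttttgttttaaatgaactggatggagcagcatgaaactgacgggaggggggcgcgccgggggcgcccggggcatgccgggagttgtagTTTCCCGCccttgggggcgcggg

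The letters were searched on both strands of windows from 250 bases before to 50 bases after each start, which RefSeq gave for 7 members in 13 windows and for 27305 genes in all. CCAAT, the box bound by NF-Y, was present in 5 of the 7 members (LMNA, LMNB1, EMD, TMPO and SUN2) and in 39.7% of all genes with a window. Members have more windows per gene than genes in general, and by window it was present in 6 of 13 (46.2%) against 34.6% of all windows. TMPO, EMD and SUN2 each carried it 2 times in a window. In TMPO it lay 47 and 15 bases before the upstream of 2 listed starts, and at -64 and -32 relative to the other. In EMD it lay 224 and 115 bases before the start. In SUN2 it lay 101 and 57 bases before the most upstream of 3 listed starts, and the windows of the other starts held none. The E2F forms searched were TTTCCCGC, TTTCGCGC, TTTGCCGC and TTTGGCGC, found in 3.99% of all genes. Among the members only LMNA had one, 23 bases before its most upstream listed start. TTTGAA, a form of the cell cycle homology region, was present in LMNB2 and SUN2 and in 18.2% of all genes. By window it was present in 2 of 13 (15.4%) against 15.2% of all windows. TTCGAA was present in 0 of the 7 members and 1.82% of genes. CCAAT was thus present both in members that fell and in EMD, which rose. A match of letters is a description and not evidence of binding.

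Among the lamins, LMNB1 (ENSG00000113368, chromosome 5, positions 126776623 to 126837020 of GRCh38) changed most. It was at 217 and 229 CPM in control 1 and 2 and at 43.5 CPM in both treated libraries. The groups are far apart, and the treated libraries differ by 0.095% of their mean. That gap is smaller than the counting error of 2378 and 1621 counts, so it does not measure how well the replicates agree. LMNB1 fell by 2.36 on the log2 scale (SE 0.05, 95% interval -2.46 to -2.26, edgeR adjusted p = 2.07e-21), and 3.04% of tested genes had a lower log2 fold change. LMNB2 (ENSG00000176619, chromosome 19, positions 2427638 to 2456996) was at 268 and 281 CPM in the controls and 111 and 109.7 CPM in the treated libraries. Its treated level was thus under that of both controls, with a log2 fold change of -1.32 (SE 0.05, edgeR adjusted p = 2.77e-17). The annotated exons of LMNB2 share 257 bases with the neighbour TIMM13 on the same strand, 4.73% of the LMNB2 exon length. TIMM13 had a log2 fold change of -0.34.

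LMNA (ENSG00000160789, chromosome 1, positions 156082573 to 156140089) was at 592 and 675 CPM in control 1 and 2 and at 611 and 622 CPM in baicalein 1 and 2. Both treated values lie between the 2 controls. The log2 fold change was -0.04 (95% interval -0.14 to 0.07, edgeR adjusted p = 0.486), so the data bound the change to a small one at this spread without showing that there was none. The 2 controls differed by 13% of their mean for LMNA, against 1.83% for the treated libraries, and the value depended on which control was used. Without control 1 the value was -0.13, and without control 2 it was 0.06. With 1 control left the spread between controls is not seen, so no p-value is given for these. With library totals alone the value was -0.14 (edgeR adjusted p = 0.0114). That scaling moves the median of all tested genes by -0.10 on the log2 scale. The counts are per gene and do not separate lamin A from lamin C transcripts.

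The ratio of lamin counts within a library does not depend on scaling between libraries. There were 2.73 and 2.94 LMNA counts per LMNB1 count in the controls, against 14.0 and 14.3 with baicalein, a rise of the log2 ratio by 2.32. The LMNA to LMNB2 ratio went from 2.21 and 2.40 to 5.52 and 5.67. For LMNB1 to LMNB2 the ratio was 0.809 and 0.817 in the controls, against 0.393 and 0.397 with baicalein, so LMNB1 was reduced further than LMNB2 in both. For each of the 6 ratios examined the 2 groups did not overlap, and the exact two-sided permutation test gave p = 0.33, the smallest value that 2 libraries against 2 allow. The adjusted value over the 6 tests is the same. These differences therefore cannot reach a threshold of 0.05 by that test.

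**Figure D2:**
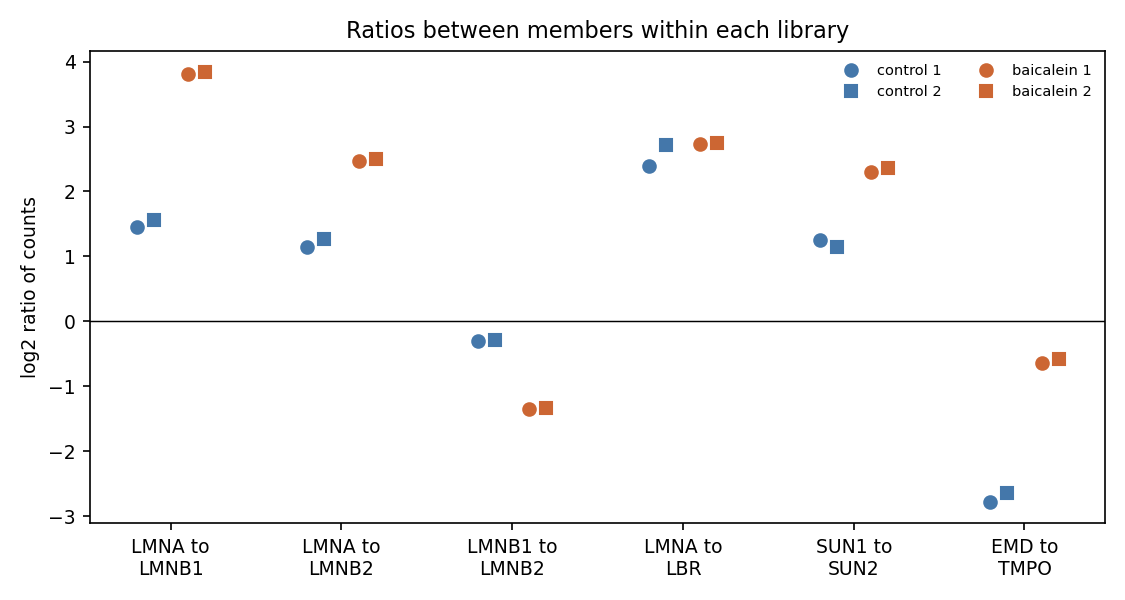
log2 ratio of the counts of 2 members (y) for the 6 pairs on the x axis, one point per library, controls in blue and baicalein in orange. The LMNA to LMNB1, LMNA to LMNB2, SUN1 to SUN2 and EMD to TMPO ratios rise in both treated libraries, LMNB1 to LMNB2 falls, and for LMNA to LBR control 2 lies next to the treated libraries.

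LBR (ENSG00000143815, chromosome 1, positions 225401502 to 225428925) codes for a receptor of B-type lamins that also has sterol reductase activity. It was at 113 and 103 CPM in the controls and 92.5 and 93.1 CPM in the treated libraries. The groups do not overlap, though control 2 is about as close to the treated libraries as to control 1. LBR fell by 0.21 on the log2 scale (SE 0.05, edgeR adjusted p = 0.00028), and 39.7% of tested genes had a lower value. The LMNA to LBR ratio was 5.26 and 6.58 in control 1 and 2, against 6.60 and 6.68 in baicalein 1 and 2. The log2 difference of 0.18 was 0.01 without control 1 and 0.34 without control 2.

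The LEM domain members moved in opposite directions. This domain binds BAF, a small protein that bridges DNA. TMPO (ENSG00000120802, chromosome 12, positions 98515512 to 98550379) codes for the LAP2 isoforms, of which the alpha form is nucleoplasmic and others lie in the inner membrane. It was at 425 and 404 CPM in the controls and 146 and 144 CPM in the treated libraries. All treated values are well under the controls, with a log2 fold change of -1.52 (SE 0.04, edgeR adjusted p = 1.79e-18), and the gene counts do not separate the isoforms. EMD (ENSG00000102119, chromosome X, positions 154379197 to 154381523), which codes for emerin, was at 61.8 and 64.4 CPM in the controls and 93.6 and 96.0 CPM in the treated libraries. Both treated values exceed both controls, and EMD rose by 0.59 on the log2 scale (SE 0.05, edgeR adjusted p = 8.03e-11). The EMD to TMPO ratio of counts went from 0.146 and 0.16 in the controls to 0.643 and 0.668 in the treated libraries.

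TMPO-AS1, a non-coding RNA transcribed from the opposite strand at the TMPO start, fell as well. Its level was 29.9 ± 0.0531 CPM in the controls and 3.84 ± 0.262 CPM in the treated libraries (SD, n = 2), a log2 fold change of -2.97 (edgeR adjusted p = 1.23e-18). Its gene (chromosome 12, positions 98512973 to 98516422) covers the TMPO stretch printed above, and exons of the pair share 713 bases, 8.3% of the TMPO exon length. No source used here says if strand was used in counting. Without strand, reads from the shared bases cannot be told apart. The processed pseudogene TMPOP2 had 6 to 16 counts per library, against at least 5356 for TMPO.

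The SUN proteins, which bind nesprins across the perinuclear space, also went apart. SUN1 (ENSG00000164828, chromosome 7, positions 816615 to 896435) was at 345 CPM in both controls and 497 and 503 CPM in the treated libraries. The treated libraries were both higher, with a log2 fold change of 0.53 (SE 0.04, edgeR adjusted p = 5.84e-11). SUN2 (ENSG00000100242, chromosome 22, positions 38734725 to 38794143) was at 146 and 157 CPM in the controls and 101 and 98.4 CPM in the treated libraries. Its groups do not overlap, and it fell by 0.60 on the log2 scale (SE 0.05, edgeR adjusted p = 4.15e-11). There were 2.37 and 2.20 SUN1 counts per SUN2 count in the controls, against 4.94 and 5.11 with baicalein.

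Annotated exons of SUN1 share 1842 bases with GET4 downstream on the same strand, 15.6% of the SUN1 exon length, and GET4 rose from 132 ± 4.23 to 241 ± 2.77 CPM (SD, n = 2). Exons of SUN2 share 680 bases with GTPBP1 on the opposite strand, and GTPBP1 had a log2 fold change of 0.07 that did not pass (edgeR adjusted p = 0.223). How reads in these shared stretches were assigned is not stated, and their part in the SUN1 and SUN2 values was not tested.

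**Figure D3:**
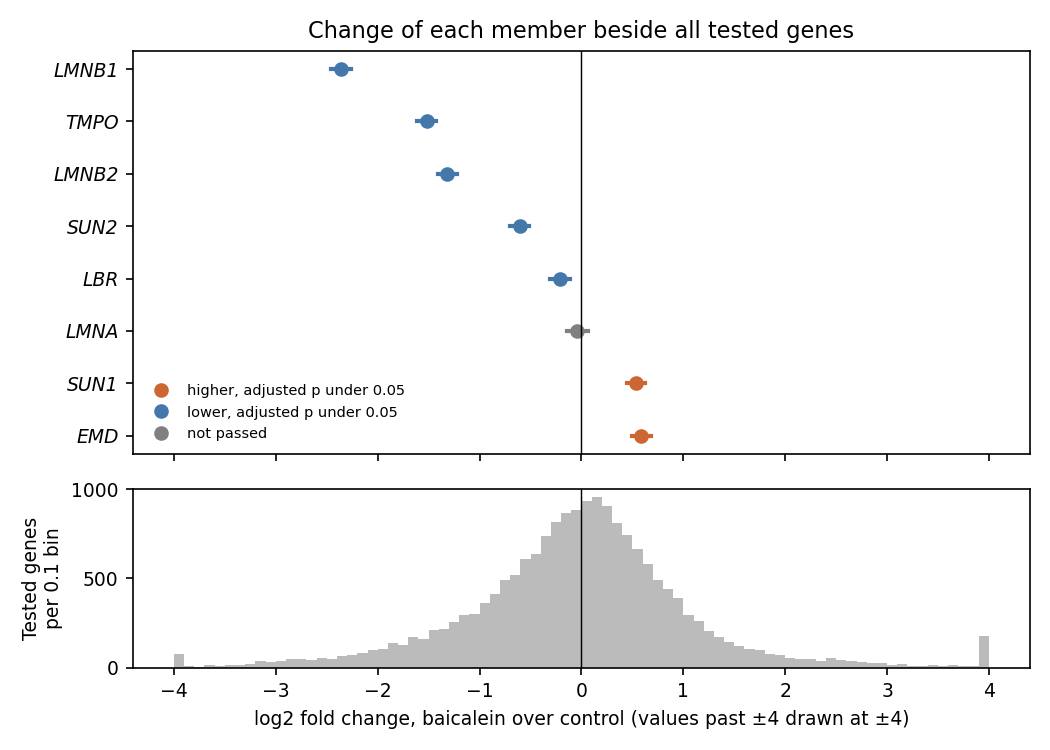
Upper panel: log2 fold change of each member, baicalein over control (x), with its 95% interval as a bar, coloured by call. Lower panel: number of tested genes per bin of 0.1 of the same quantity. LMNB1 at -2.36 lies in the lower tail of all tested genes, whereas EMD at 0.59, SUN1 at 0.53, SUN2 at -0.60 and LBR at -0.21 lie in its body.

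Between genes, levels can be compared only per length. On the scale of CPM per kilobase of all annotated exons (GENCODE release 29), the order in the controls was LMNA (90.7 ± 8.35), LMNB1 (61.4 ± 2.44), LMNB2 (50.5 ± 1.66), TMPO (48.2 ± 1.67), EMD (31.3 ± 0.919), SUN1 (29.2 ± 0.0146), SUN2 (23.3 ± 1.21) and LBR (20.5 ± 1.35) (SD, n = 2). The libraries of LMNB2 and TMPO overlap, and the other neighbours in this order do not. In the treated libraries the order was LMNA (88.2 ± 1.14), EMD (46.95 ± 0.841), SUN1 (42.3 ± 0.357), LMNB2 (20.3 ± 0.13), LBR (17.7 ± 0.087), TMPO (16.8 ± 0.148), SUN2 (15.3 ± 0.239) and LMNB1 (11.97 ± 0.00805), with no overlap between neighbours. LMNB1 thus went from the second to the last place. Its SD in the treated libraries and that of SUN1 in the controls are under counting error. With the length of the longest coding transcript instead, LMNA was still first in both groups and LMNB1 last in the treated one. The places between changed, with TMPO second in the controls (97.7 ± 3.39) ahead of SUN1 (85.0 ± 0.0425) and LMNB1 (77.5 ± 3.08).

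Enzymes that process the lamin tail did not move as one. Prelamin A and the B-type lamins are farnesylated by the enzyme of FNTA and FNTB, cut by RCE1 or ZMPSTE24 and methylated by ICMT, and ZMPSTE24 makes the final cut to mature lamin A. Of these 5 genes 3 were higher and 1 lower in edgeR's test (median log2 fold change 0.36). Of all tested genes 37.4% were higher and 37.6% lower, so the number of calls is near that of genes in general. ICMT fell from 147 ± 3.78 to 59.0 ± 2.42 CPM (log2 fold change -1.32), and FNTA rose from 73.2 ± 2.87 to 125 ± 1.32 CPM (0.78). FNTB and RCE1 rose with 0.47 and 0.36. ZMPSTE24 had a log2 fold change of -0.03 (edgeR adjusted p = 0.628). The ZMPSTE24 value changed with the controls, to 0.04 without control 1 and -0.09 without control 2. With library totals alone it was -0.13 (edgeR adjusted p = 0.0214).

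Of 7 further LEM domain and BAF genes 5 had rows, and 3 of these were lower and 1 higher (median log2 fold change -0.11). The shares over all tested genes were 37.6% and 37.4%. BANF1, which codes for BAF, fell from 123 ± 5.44 to 77.4 ± 0.0694 CPM (-0.67). LEMD2 rose with 0.21, and ANKLE2, a regulator of BAF dephosphorylation, and LEMD3 fell with -0.16 and -0.11. ANKLE1 was at 0.361 ± 0.00118 and 0.398 ± 0.0452 CPM and did not pass (edgeR adjusted p = 0.771). The call of LEMD3 (edgeR adjusted p = 0.0399) was lost without baicalein 1 (0.313) and without baicalein 2 (0.234), in DESeq2 (0.117), with the stricter filter (0.0588) and with a replicate block (0.0583). That of ANKLE2 was lost without baicalein 2 (0.113), which left 1 lower gene in this list.

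The nesprin genes, whose products join the SUN proteins in the LINC complex, changed in both directions. Of 7 listed partners 4 had rows, with 2 higher and 2 lower (37.4% and 37.6% over all tested genes). SYNE2, which codes for the actin-binding nesprin-2, fell from 166 ± 6.34 to 66.1 ± 0.0426 CPM (log2 fold change -1.32). SYNE1 fell from 6.57 ± 0.457 to 3.92 ± 0.564 CPM (-0.73). SYNE3, which codes for the plectin-linked nesprin-3, rose from 11.8 ± 0.204 to 51.1 ± 0.0981 CPM (2.11), and SYNE4 rose with 0.27. The change of SYNE3 is larger than that of any member that rose.

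Among 9 other inner membrane and torsin genes 6 were lower and 2 higher (median log2 fold change -0.43). Over all tested genes the shares were 37.6% and 37.4%. Nurim (NRM) fell from 19.2 ± 0.783 to 4.28 ± 0.057 CPM (-2.17), NEMP2 from 5.86 ± 0.311 to 1.38 ± 0.0175 CPM (-2.08) and NEMP1 from 161 ± 7.08 to 87.3 ± 1.77 CPM (-0.88). TMEM43, a partner of emerin known as LUMA, rose from 49.2 ± 0.604 to 104.5 ± 1.86 CPM (1.09). TOR1AIP1, which codes for the lamina-binding protein LAP1 that activates torsin, rose with 0.72.

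Genes of envelope breakdown and resealing changed little, apart from VRK1. VRK1, a kinase that releases BAF from chromatin in mitosis, fell from 51.1 ± 1.84 to 20.2 ± 0.176 CPM (log2 fold change -1.34). Of the 11 genes 5 were higher and 3 lower, against 37.4% and 37.6% of all tested genes. The median log2 fold change was 0.05, or -0.05 with library totals alone. VPS4B, IST1 and CNEP1R1 rose with 0.44, 0.24 and 0.35, and CTDNEP1 with 0.20. Without baicalein 1 the count was 3 higher and 1 lower, with CTDNEP1 not called (edgeR adjusted p = 0.0843), and without baicalein 2 it was 4 and 1. With library totals alone 3 were higher, again without CTDNEP1 (adjusted p = 0.0924).

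All 4 genes of the list of heterochromatin proteins known to bind envelope proteins were lower (median log2 fold change -0.60). Of all tested genes 37.6% were lower. CBX5, which codes for HP1 alpha, a partner of LBR, fell from 527 ± 10.9 to 247 ± 6.20 CPM (-1.09). CBX3 fell from 327 ± 34.1 to 182 ± 0.659 CPM (-0.84), and CBX1 and PRR14 fell with -0.32 and -0.37. In the test against a 1.5-fold change 2 of the 4 were lower, without CBX1 and PRR14.

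The fall of LMNB1, LMNB2 and TMPO went along with that of proliferation markers. All 8 of these markers (median log2 fold change -1.93, range -2.88 to -1.04) were lower, against 37.6% of all tested genes. Their summed level was 2101 to 2146 CPM in the controls and 573 to 594 CPM in the treated libraries. The part of this shift in the values of the lamina genes was not tested. LMNB1 at -2.36 lies within the range of the markers, as do TMPO at -1.52 and LMNB2 at -1.32, and the other 5 members lie above it. That range is wide. Of all tested genes 1.56% had a lower value than its low end (PCNA) and 14.8% a lower value than its high end (CCNB1). Lying within it is thus not particular to genes of proliferation.

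**Figure D4:**
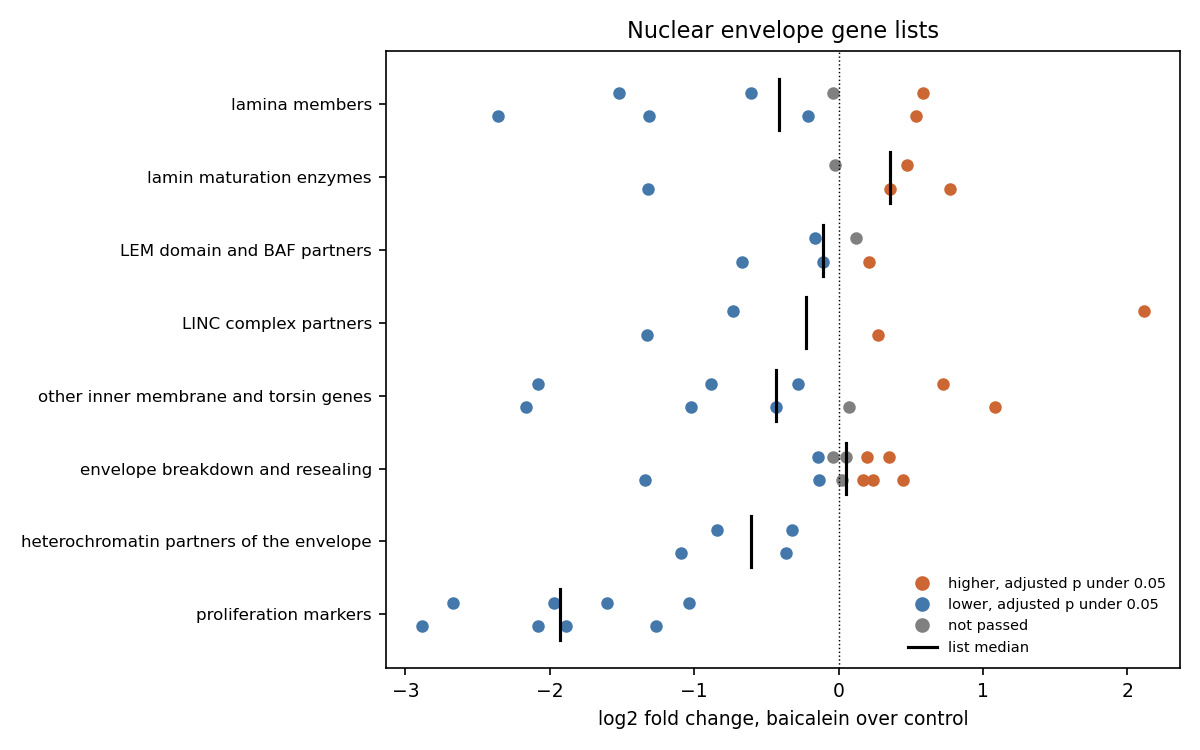
log2 fold change, baicalein over control (x), of each tested gene of the lists named on the y axis, coloured by call, with the median of each list as a black bar (points are offset vertically for legibility). The 8 proliferation markers and the 4 heterochromatin genes all lie under 0, whereas the other lists hold changes in both directions.

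Genes with the most similar profile were found over the 4 libraries as the smallest root mean square distance of centred log2 CPM, among 10089 protein-coding genes with a mean log2 CPM of at least 3. For LMNB1 they were KIF18B, a mitotic kinesin gene, and the replication licensing gene CDT1, at distances of 0.0201 and 0.024 log2 units and with log2 fold changes of -2.40 and -2.32. For TMPO they were ERMP1 and TOPBP1 (0.00911 and 0.0128), the latter a DNA replication checkpoint gene, and for LMNB2 MANSC1 and MAP4K2 (0.00432 and 0.0117). LBR was closest to EIF2AK2 and DYNLT2B (0.00425 and 0.00733), EMD to RBM33 and DTNA (0.0039 and 0.00868), and SUN1 to RETREG2 and PDPR (0.00403 and 0.00586). SUN2 was closest to GPR161 and CPSF1 (0.00498 and 0.00597), and LMNA to MED15 and PTDSS2 (0.00492 and 0.0116). With 4 libraries in 2 groups these distances mostly reflect the size of the fold change.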

How the data were processed

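Poly(A) RNA of 2 control and 2 baicalein-treated T47D samples was sequenced. Unscaled whole-number counts per gene were deposited in 1 table of 20515 rows with a smallest row total of 10. Per the submitters' processing notes, the tools were STAR 2.7.8a, RSEM 1.3.3, cutadapt 2.3, FastQC 0.11.8 and DESeq2 1.34, and the build was GRCh38, with no role stated for each. The annotation and strand setting were not given in the sources used here. Counts that are rounded RSEM estimates would hold assignment error where genes share exons.

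Columns were matched by the sample descriptions, and groups by the titles. Of the identifiers 17419 had a symbol in the names table. Coordinates and exon overlaps came from GENCODE release 29 (GRCh38), which may not be the authors' release. Replicates differed on average by more than sampling noise (mean chi-square per gene 9.61 in controls and 2.43 in treated libraries). The medians were lower, at 1.39 and 0.703. Between the treated libraries the members other than LMNA (4.56) had values of 0.00087 (LMNB1) to 1.58 (SUN1), which is within counting error. The 2 columns of a group are thus not copies of each other, but this does not show that they are separate cultures.

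The test was that of edgeR 4.0.16 under R 4.3.3 (TMM, filterByExpr with a minimum count of 10 and total of 15, robust quasi-likelihood F test), which kept 18369 genes. The standard error is the log2 fold change divided by the square root of F. Ratios used a pseudocount of 1. A floor of 3 counts is 0.0549 to 0.0805 CPM and covers counting error only. Alternatives were other scalings and filters, DESeq2 1.42.0, limma-voom (limma 3.58.1), a test against a 1.5-fold change, a threshold of 0.01, a replicate block and leaving out each library. The exon length per kilobase and the alternatives for genes outside the members were added after seeing the data. Simulated data for this comparison held 15815 genes, with 50 changed by each of 1.2, 1.5, 2 and 4 fold. The shares called were 50%, 82%, 100% and 100%. Of 189 calls in all, 23 fell on the 15615 unchanged genes. That is a larger share than the 0.05 aimed at, so calls near the threshold, such as that of LEMD3, are less sure. In the measured data 75.0% of tested genes were called, and a simulation with that many changed genes was not tested. Members and lists were chosen with earlier results of these data known. Named genes are the members, up to 5 per other list by smallest adjusted p, and the 2 genes closest to each member. The overlapping genes were named for their position.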

Additional observations from a re-analysis of the deposited data

How the results depend on the processing

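Directions of the 7 called members held under all 14 alternatives, and LMNB1, LMNB2 and TMPO stayed past the threshold in each. The test against a 1.5-fold change left 0 members higher and 3 lower, and 3090 and 3581 of all genes. It no longer called LBR (-0.21) and SUN1 (0.53), whose changes of 1.16-fold and 1.45-fold are under that size. EMD (0.59, 1.502-fold) and SUN2 (-0.60, 1.52-fold) lie just past it and were not called either (adjusted p = 0.501 and 0.321 by that test). Of the named genes of the other lists it no longer called FNTB, RCE1, LEMD2, ANKLE2, LEMD3, SYNE1, SYNE4, VPS4B, IST1, CTDNEP1, CNEP1R1, CBX1 and PRR14 (SYNE1 adjusted p = 0.0993, the others 1). LMNA was called lower with library totals alone (-0.14) and not with TMM scaling (-0.04). Library totals alone moved the median of all tested genes by -0.10 against TMM scaling. The part of that move in the LMNA call was not tested. Leaving out each library gave LMNA values of -0.134 (without control 1) to 0.0626 (without control 2). ZMPSTE24 turned to 0.0383 without control 1 and was -0.0858 without control 2. The replicate block gave 6894 genes and 2 members higher and 6909 and 5 lower, and changed the call of no member. The titles number the libraries but do not say what a number shares, and the correlation of replicate differences between the groups was 0.0136 over genes, so the block was not used. With 2 libraries per group, the spread between samples is known poorly. Where a library is left out, the lone sample is assumed to vary like the other group.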
